A study of Mus musculus with 6 samples.

Results

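The ATP-binding cassette (ABC) transporter genes of mouse liver were compared between livers injected with a TFEB vector and livers that were not injected. The members are the genes whose single symbol in the platform annotation reads Abc, then a letter from a to g, then a digit. By this rule 36 of the 12393 genes tested are members. They carry 65 probe sets, 15 of the 36 have more than 1, and each gene was read by the probe set with the highest mean over the 6 arrays. The first group comprises 3 mice whose liver received an adenoviral TFEB vector, and the other group comprises 3 mice that were not injected. The 6 animals were 1 month old, of C57 background and labelled as Ppara KO, so both groups lack this nuclear receptor gene according to the labels. Each array is the whole liver RNA of 1 mouse. No group received another vector, so TFEB, the virus and the injection itself cannot be told apart, and the labels name no promoter for the vector. TFEB is a transcription factor known for switching on lysosomal and autophagy genes.

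ABC transporters couple the hydrolysis of ATP to the movement of a substrate across a membrane. In hepatocytes those of the canalicular membrane, the face that borders the bile ducts' finest branches, secrete bile salts, phospholipid, sterols, conjugates and drugs, and together they form bile. Others load cholesterol onto lipoproteins, bring acyl-CoAs into peroxisomes, serve mitochondria and lysosomes or, in the ABCE and ABCF subfamilies, act on ribosomes without crossing a membrane.

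The values are log2 expression levels, on which a difference of 1 is a doubling, and all differences are TFEB-injected minus not-injected. Array-to-array correlations over all tested genes were 0.9952 to 0.9984 within the TFEB-injected group, 0.9984 to 0.9987 within the not-injected group and 0.9888 to 0.9934 between them. The probe set for Tfeb gave 7.63, 7.46 and 7.69 in TFEB-injected livers and 7.52, 7.63 and 7.51 in not-injected livers (difference 0.04 ± 0.07 SE; limma adjusted p = 0.777). For Ppara the readings were 9.08, 9.04 and 9.12 in TFEB-injected livers and 8.98, 8.87 and 9.01 in not-injected livers (0.13 ± 0.05 SE; limma adjusted p = 0.149). Neither probe set checks the labels, because the labels give neither the species of the vector's TFEB nor the deleted part of Ppara. Of 6 measured hepatocyte markers, such as the albumin gene Alb, 0 passed the test in either direction in limma and their median difference was 0.00, with means of 13.64 to 14.95 in TFEB-injected livers and 13.62 to 15.02 in not-injected livers. With 3 arrays a group, precision is limited by their number.

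Members moved in both directions. Abca8a, Abca8b, Abcg2 and Abcg1 rose in the TFEB-injected livers, whereas Abcb1b, Abcg5, Abcg8, Abcb11, Abcc5, Abcd3, Abcb10 and Abcg4 fell. That makes 4 members higher and 8 lower at an adjusted p under 0.05, or 11.1% and 22.2% of the 36. Over all genes tested 9.99% were higher and 7.92% lower, and 17.9% passed in either direction. Members were often bright, and bright genes passed more often: of the 24 members at or above the median level of all genes (7.34) 11 passed, against 27.6% of all genes at such levels, and of the 12 dimmer members 1 passed, against 8.23% of dimmer genes. The median difference was -0.10 over the members and -0.01 over all genes. The groups did not overlap in 4 members that were higher and 15 that were lower, while 18.2% and 18.9% of all genes had such separation. With not-injected mouse 1 removed 4 members were called lower, with not-injected mouse 2 removed 5, and with TFEB-injected mouse 2 removed 5, while 3 or 4 were called higher whichever mouse was removed.

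**Figure D1:**
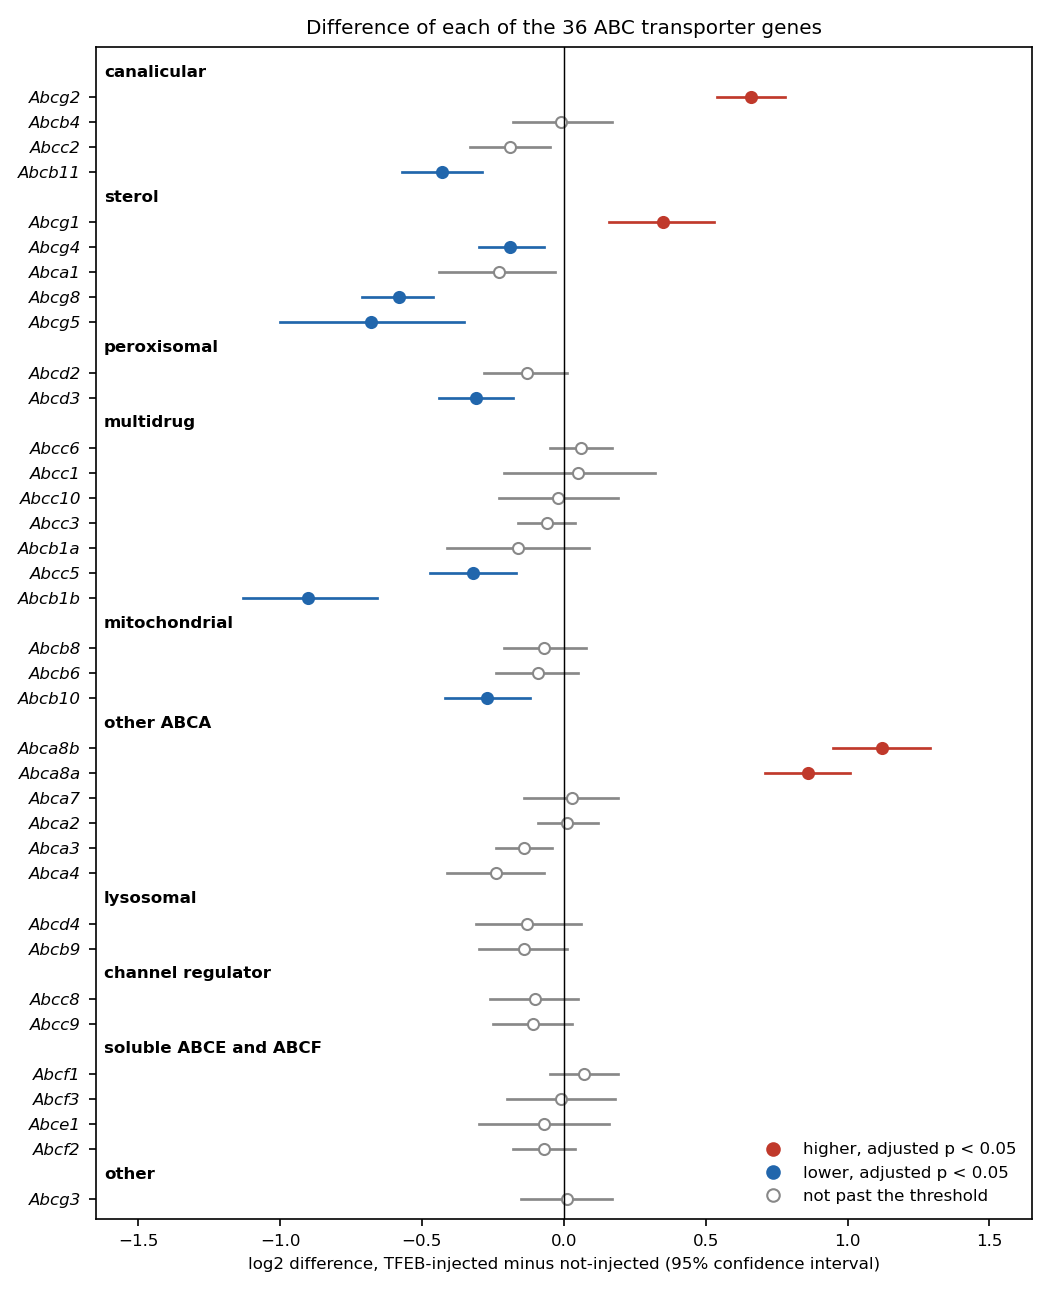
Difference of each of the 36 members (TFEB-injected minus not-injected, log2, horizontal axis) with its 95% confidence interval, grouped by class down the page. Filled red points are the 4 members called higher, filled blue points the 8 called lower and open grey points the 24 that did not pass; Abca8b lies farthest right at 1.12 and Abcb1b farthest left at -0.90.

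The largest rises were in a pair of neighbouring genes, Abca8b and Abca8a, of the ABCA subfamily, whose human relative ABCA8 has been tied to cholesterol efflux and to HDL levels. Abca8b read 9.45, 9.41 and 9.35 in TFEB-injected livers and 8.21, 8.21 and 8.43 in not-injected livers. The lowest TFEB-injected mouse lay well above the highest not-injected mouse, and the difference of 1.12 ± 0.07 (SE; limma adjusted p = 1.44e-04) is 2.18-fold. Abca8a read 11.95, 11.86 and 11.74 in TFEB-injected livers and 10.94, 11.00 and 11.03 in not-injected livers. Here too the groups were apart, by 0.86 ± 0.06 (SE; limma adjusted p = 2.39e-04), or 1.81-fold. Both calls held in all 14 alternative settings, with differences between 1.08 and 1.20 for Abca8b and between 0.81 and 0.91 for Abca8a. Each gene has 1 probe set, and whether the probes of either gene also detect the other was not tested.

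The start regions of these 2 genes are shown because they hold the letters that TFEB is known to bind. TFEB binds the E-box CACGTG, and best in the longer form TCACGTGA, the core of the site known as CLEAR. The sequences are from RefSeq (GRCm38.p6), 250 bases before to 50 after the annotated start, 5′ to 3′ on the gene's strand, with matches in capitals.
Abca8b, chr11:109995796-109996095, minus strand: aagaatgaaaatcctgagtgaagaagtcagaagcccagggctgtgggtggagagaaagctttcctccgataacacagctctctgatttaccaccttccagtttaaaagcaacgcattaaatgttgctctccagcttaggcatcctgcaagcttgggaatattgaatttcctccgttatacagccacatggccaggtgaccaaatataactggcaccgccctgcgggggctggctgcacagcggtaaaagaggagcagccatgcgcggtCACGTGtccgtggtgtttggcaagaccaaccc
Abca8a, chr11:110095888-110096187, minus strand: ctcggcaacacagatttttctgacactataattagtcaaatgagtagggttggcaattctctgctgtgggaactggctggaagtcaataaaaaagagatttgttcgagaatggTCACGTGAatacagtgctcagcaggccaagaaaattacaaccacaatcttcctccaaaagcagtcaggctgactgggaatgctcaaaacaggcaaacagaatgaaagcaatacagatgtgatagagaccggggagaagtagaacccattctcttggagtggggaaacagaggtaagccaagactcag
The Abca8a window holds TCACGTGA beginning 137 bases before the start, and the Abca8b window holds CACGTG but not the longer form, beginning at base 19 of the transcript. Of 27 members with a promoter in the table, 4 had CACGTG on either strand in any of their windows, namely Abca1, Abca8a, Abca8b and Abcf1, and 1 had TCACGTGA, which contains CACGTG. Counted by window, 4 of the 33 windows of members held CACGTG and 1 held TCACGTGA. Among all 32851 promoter windows of the same length 7.15% held CACGTG and 0.974% held TCACGTGA. The 4 genes with the E-box did not move together, since Abca1 (-0.23) and Abcf1 (0.07) did not pass. A match describes letters only and is no evidence of binding.

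The other measured ABCA genes, apart from Abca1 of the sterol class, were Abca2, Abca3, Abca4 and Abca7. Their differences ran from -0.24 to 0.03, and 0 of these 4 passed in limma. Abca3, known for lipid loading of lung surfactant, read 8.95, 8.91 and 8.92 in TFEB-injected livers and 9.06, 9.06 and 9.07 in not-injected livers (-0.14 ± 0.04 SE; limma adjusted p = 0.0557). These groups do not overlap, and the difference did not pass. It passed under median centring (adjusted p = 0.0287), under cyclic loess (0.0341), with dim genes left out (0.0137) and with an intensity trend and robust prior (0.0396). Abca4, a retinal transporter that was dim here, was at 5.45 to 5.50 in TFEB-injected livers and 5.58 to 5.86 in not-injected livers (-0.24 ± 0.07 SE; limma adjusted p = 0.0602), and passed under median centring (0.0379) and with not-injected mouse 3 removed (0.0322).

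Of the 4 members classed here as canalicular exporters 1 rose, 1 fell and 2 did not pass. Each member was counted in 1 class. Beside the class counts, 17.9% of all genes tested passed, and 27.6% of those at or above the median level. Whether any class differs from these shares was not tested. Abcg5 and Abcg8, which also secrete into bile, were counted as sterol transporters, and Abcb1a and Abcb1b as multidrug transporters. Of those genes Abcg5, Abcg8 and Abcb1b fell, as given below, and Abcb1a did not pass. Abcg2, the breast cancer resistance protein that exports urate, porphyrins and drugs, read 11.52, 11.58 and 11.65 in TFEB-injected livers and 10.92, 10.91 and 10.94 in not-injected livers. Every TFEB-injected mouse was higher, by 0.66 ± 0.05 (SE; limma adjusted p = 2.58e-04) or 1.58-fold, and the call held in all 14 alternative settings. Abcb11, the bile salt export pump and main driver of bile flow, read 11.72, 11.62 and 11.54 in TFEB-injected livers and 12.03, 12.03 and 12.11 in not-injected livers. All TFEB-injected mice were lower, with a difference of -0.43 ± 0.06 (SE; limma adjusted p = 0.00276), and this call too held in all 14 settings.

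Abcc2, which exports bilirubin glucuronides and glutathione conjugates, gave 11.11, 11.01 and 10.92 in TFEB-injected livers and 11.20, 11.24 and 11.18 in not-injected livers. The groups do not overlap, yet the difference of -0.19 ± 0.06 (SE; 95% interval -0.33 to -0.05) did not pass (limma adjusted p = 0.0647). It passed under median centring (adjusted p = 0.0405), with dim genes left out (0.0308), with an intensity trend and robust prior (0.0223) and with TFEB-injected mouse 1 removed (0.0316). Its probe set can also detect related sequences. Abcb4, which moves phosphatidylcholine into bile, gave 10.85, 10.72 and 10.55 in TFEB-injected livers and 10.69, 10.72 and 10.72 in not-injected livers. The TFEB-injected mice lay on both sides of the others, and the 95% interval of the difference was -0.18 to 0.17 (limma adjusted p = 0.973).

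The promoter of Abcb11 is shown for its nuclear receptor half-site, AGGTCA, a hexamer used by receptors such as the bile acid receptor FXR, which is known to activate this gene. The half-site was searched after the sequences were seen.
Abcb11, chr2:69342567-69342866, minus strand: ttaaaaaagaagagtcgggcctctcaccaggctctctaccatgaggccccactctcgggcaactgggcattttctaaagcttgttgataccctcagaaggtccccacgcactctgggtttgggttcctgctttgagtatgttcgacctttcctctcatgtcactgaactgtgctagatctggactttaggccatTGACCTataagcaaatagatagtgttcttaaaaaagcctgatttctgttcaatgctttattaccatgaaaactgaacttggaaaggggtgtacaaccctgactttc
It lies on the opposite strand, as TGACCT, beginning 56 bases before the start. The half-site on either strand was present in 5 of 27 members with a promoter, Abcb6, Abcb11, Abcc2, Abcc10 and Abcg2. Counted by window, it was in 7 of the 33 windows of members and in 16.3% of all windows. These 5 genes went different ways, with Abcb11 lower and Abcg2 higher.

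Of the 5 members classed here as sterol transporters 1 rose and 3 fell. Abca8a and Abca8b, which rose, were classed with the other ABCA genes and are not in this count. Abcg5 and Abcg8 encode the partners of 1 heterodimer that secretes cholesterol and plant sterols into bile. Abcg8 read 7.66, 7.74 and 7.71 in TFEB-injected livers and 8.25, 8.24 and 8.37 in not-injected livers. The mice of each group lay close together and the groups were far apart, by -0.58 ± 0.05 (SE; limma adjusted p = 5.45e-04), in all 14 alternative settings as well. Abcg5 read 8.27, 8.65 and 8.87 in TFEB-injected livers and 9.28, 9.19 and 9.34 in not-injected livers. The difference was of similar size, -0.68 ± 0.14 (SE; limma adjusted p = 0.0151), but the TFEB-injected mice were scattered (SD 0.30, against 0.08 in not-injected livers), with mouse 1 lowest. Removing not-injected mouse 1 ended the Abcg5 call (adjusted p = 0.0559), and so did removing not-injected mouse 3 (0.0570).

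One annotated start of Abcg8 lies beside the start of Abcg5, and this stretch is shown because it belongs to both genes. They are read in opposite directions from starts 110 bases apart, and these windows overlap by 209 bases. RefSeq has another Abcg8 start farther upstream, whose window holds no GATA box and is not shared with Abcg5. The Abcg8 window beside Abcg5 is printed, with the GATA box AGATAA and its reverse TTATCT in capitals, a motif searched after the sequences were seen.
Abcg8, chr17:84682871-84683170, plus strand: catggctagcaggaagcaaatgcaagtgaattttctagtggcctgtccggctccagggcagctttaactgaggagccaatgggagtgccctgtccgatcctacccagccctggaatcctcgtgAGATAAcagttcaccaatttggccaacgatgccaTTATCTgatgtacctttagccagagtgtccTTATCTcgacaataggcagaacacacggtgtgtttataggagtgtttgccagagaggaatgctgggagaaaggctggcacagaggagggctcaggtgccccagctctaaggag
It holds the GATA box 3 times, beginning 127, 93 and 63 bases before the Abcg8 start. The same 3 boxes lie in the Abcg5 window. At least 1 box was in 3 of the 33 windows of members, those of Abcg5, Abcg8 and Abcf2, and in 11.2% of all windows. Abcf2 (-0.07) did not pass. GATA factors are known to act on the promoter shared by Abcg5 and Abcg8 in human cells. Neither CACGTG nor AGGTCA occurs in the printed Abcg8 window.

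Abca1, which passes cholesterol and phospholipid to apolipoprotein A-I, gave 11.87, 11.73 and 11.51 in TFEB-injected livers and 11.95, 11.95 and 11.92 in not-injected livers. All TFEB-injected mice were lower, but by unequal amounts, and the difference of -0.23 ± 0.09 (SE; 95% interval -0.44 to -0.03) did not pass (limma adjusted p = 0.111). It passed at -0.31 once TFEB-injected mouse 1 was removed (adjusted p = 0.0310). The 2 further Abca1 probe sets gave -0.29 and -0.20. Abcg1, which passes cholesterol to HDL and is prominent in macrophages, read 8.21, 8.44 and 8.19 in TFEB-injected livers and 7.85, 8.02 and 7.93 in not-injected livers. It rose by 0.35 ± 0.08 (SE; limma adjusted p = 0.0235) without overlap, but removing not-injected mouse 1 ended the call (adjusted p = 0.0886), as did removing not-injected mouse 3 (0.0700) or TFEB-injected mouse 2 (0.0600).

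Macrophage markers moved in the same direction as Abcg1. Of 14 measured macrophage and Kupffer cell markers 10 rose, against 9.99% of all genes tested, and 0 fell. The median difference of these markers was 0.47. Their summed linear level was 14600 to 16300 in TFEB-injected livers and 10800 to 11100 in not-injected livers. The defining Kupffer cell genes Clec4f (9.81 ± 0.02, against 9.50 ± 0.05 in not-injected livers; SD, n = 3) and Vsig4 (10.50 ± 0.09, against 10.00 ± 0.04) were among them, and the lowest marker, Cd163, averaged 6.08 in TFEB-injected livers and 5.98 in not-injected livers. Of 10 measured endothelial markers 2 rose, Stab2 (1.42) and Lyve1 (0.89), and 0 fell, with a median difference of -0.02. The part of either cell type in the Abcg1 value was not tested. In whole liver RNA more cells of a type and more RNA per cell cannot be told apart. Abcg4, a close relative of Abcg1 best known from brain, gave 7.86, 7.82 and 7.95 in TFEB-injected livers and 8.08, 8.04 and 8.06 in not-injected livers. Both of its probe sets, like that of Abcc2, can also detect related sequences. The difference of -0.19 ± 0.05 (SE; limma adjusted p = 0.0426) is the smallest among the calls, and it was kept in 5 of 13 alternative settings. Removing any mouse but TFEB-injected mouse 3 ended it (adjusted p up to 0.157), and in the mean of its probe sets it was -0.14 (0.159).

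**Figure D2:**
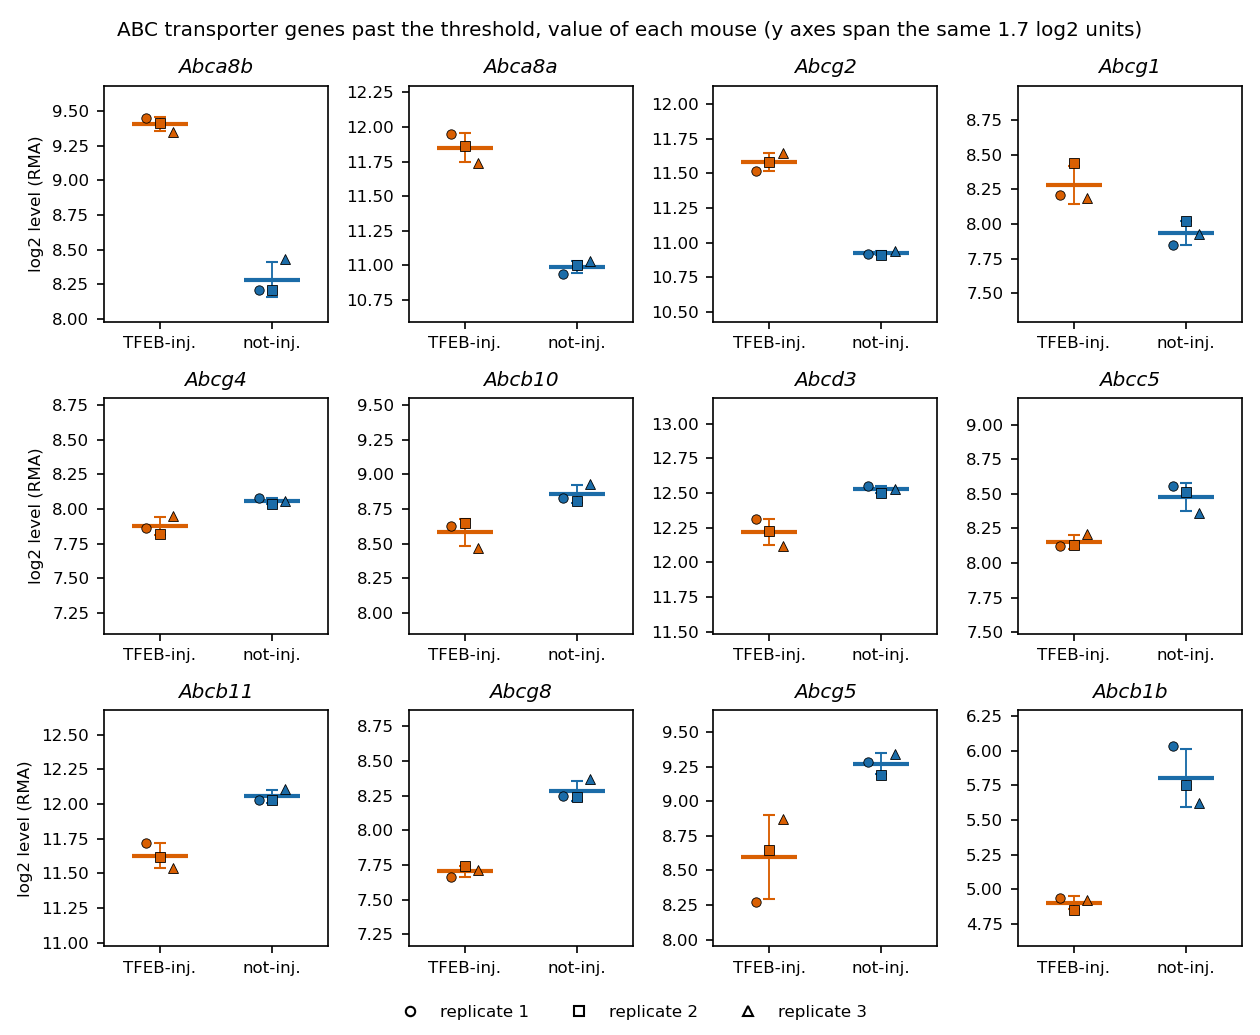
Log2 level (vertical axis) of the 12 members that passed the test in each mouse, with TFEB-injected livers on the left and not-injected livers on the right of each panel; symbols mark the replicate number, horizontal bars the group mean and error bars the SD of 3 mice. In all 12 panels the groups do not overlap, and the widest scatter is in the TFEB-injected values of Abcg5, from 8.27 to 8.87.

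Of 2 measured peroxisomal members 1 fell and 1 did not pass. Abcd3, the abundant 70-kDa membrane protein of peroxisomes that imports branched-chain acyl-CoAs and bile acid intermediates, read 12.31, 12.23 and 12.12 in TFEB-injected livers and 12.55, 12.50 and 12.53 in not-injected livers. Every TFEB-injected mouse was lower, with a difference of -0.31 ± 0.06 (SE; limma adjusted p = 0.0100), and the call held in all 14 alternative settings with an adjusted p up to 0.0476. Abcd2, a carrier of very long and polyunsaturated acyl-CoAs that was dim here, gave 4.85 to 5.06 in TFEB-injected livers and 5.10 to 5.11 in not-injected livers (-0.13 ± 0.06 SE; 95% interval -0.28 to 0.01; limma adjusted p = 0.179).

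Among 7 multidrug transporters 0 rose and 2 fell, while 9.99% of all genes tested rose and 7.92% fell. Abcb1b, 1 of the 2 P-glycoprotein genes of the mouse, had the largest fall of all members. It read 4.94, 4.85 and 4.92 in TFEB-injected livers and 6.03, 5.75 and 5.62 in not-injected livers. These values are low, and the gap is wide, -0.90 ± 0.10 (SE; limma adjusted p = 0.00119), or 1.86-fold lower, in all 13 alternative settings that include the gene. Abcb1a, the other P-glycoprotein gene, gave 4.36, 4.58 and 4.33 in TFEB-injected livers and 4.40, 4.77 and 4.57 in not-injected livers (-0.16 ± 0.11 SE; limma adjusted p = 0.376). Its groups overlap, and its level was the lowest of the 36 members in both groups. Abcb1a, Abcb1b and Abcb4 lie next to each other on chromosome 5, with differences of -0.16, -0.90 and -0.01.

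Abcc5, an exporter of cyclic nucleotides, read 8.12, 8.13 and 8.21 in TFEB-injected livers and 8.56, 8.51 and 8.36 in not-injected livers. Its difference of -0.32 ± 0.06 (SE; limma adjusted p = 0.0128) comes from 1 of 7 probe sets, and the other 6 gave -0.03 to 0.02. In the mean of its probe sets the difference was -0.05 (adjusted p = 0.449), and removing not-injected mouse 1 (0.0536) or 2 (0.0555) or TFEB-injected mouse 2 (0.0572) ended the call too. The remaining multidrug members did not pass. Abcc3, which returns glucuronides from hepatocytes to blood, gave 9.54 to 9.57 in TFEB-injected livers and 9.59 to 9.62 in not-injected livers. The 95% interval of its difference was -0.16 to 0.04 (limma adjusted p = 0.400). Abcc6, whose loss in humans causes pseudoxanthoma elasticum, had an interval of -0.05 to 0.17, Abcc1 of -0.21 to 0.32 and Abcc10 of -0.23 to 0.19.

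Of 3 mitochondrial members Abcb10 fell and 2 did not pass. Abcb10, an inner membrane protein needed for heme synthesis in red cell precursors, read 8.63, 8.65 and 8.47 in TFEB-injected livers and 8.83, 8.81 and 8.93 in not-injected livers (-0.27 ± 0.06 SE; limma adjusted p = 0.0270). A further probe set gave -0.40 and also passed when every probe set was tested (adjusted p = 0.00566), while the third gave -0.05. Removing any not-injected mouse or TFEB-injected mouse 2 ended the call (adjusted p from 0.0568 to 0.0862). Of 4 measured erythroid markers 0 rose and 1 fell, Alas2 (-0.81 ± 0.07 SE), the heme synthesis enzyme of red cell precursors. Klf1, Slc4a1 and Hba-a1 gave -0.14, 0.07 and 0.03. The summed linear level of the erythroid list, 790 to 878 in TFEB-injected livers and 1300 to 1320 in not-injected livers, follows Alas2, the brightest of the 4. The part of erythroid cells in the Abcb10 value was not tested. Abcb6 (-0.09) and Abcb8 (-0.07) overlapped between groups.

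In the remaining classes 0 of 9 members passed in limma. The lysosomal peptide transporter gene Abcb9 (-0.14; 95% interval -0.30 to 0.01) and Abcd4, needed for cobalamin release from lysosomes (-0.13; -0.31 to 0.06), were not called higher. The sulfonylurea receptor genes Abcc8 and Abcc9, subunits of potassium channels, gave -0.10 and -0.11. Abce1, which splits ribosomes after termination, and Abcf1, Abcf2 and Abcf3, known from translation control, lay between -0.07 and 0.07. Abce1 ranged from 9.62 to 10.03 in TFEB-injected livers and 9.84 to 9.93 in not-injected livers. Abcg3, a rodent relative of Abcg2, gave 0.01 in its brighter probe set, while the other gave 0.34 ± 0.07 (SE; limma adjusted p = 0.0203 over all probe sets).

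Of the 29 further probe sets of members 7, in 4 genes, had the opposite sign to the one used, and 0 of these 7 passed in limma. In all, 2 of the 29 passed when every probe set was tested, 1 each of Abcb10 and Abcg3, against 15.4% of all probe sets. That share is not a like reference, because it includes the brightest probe set of each gene. The 29 are the dimmer ones of their genes. Of the 12 called members 9 have a single probe set, so that their values have no second reading.

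**Figure D3:**
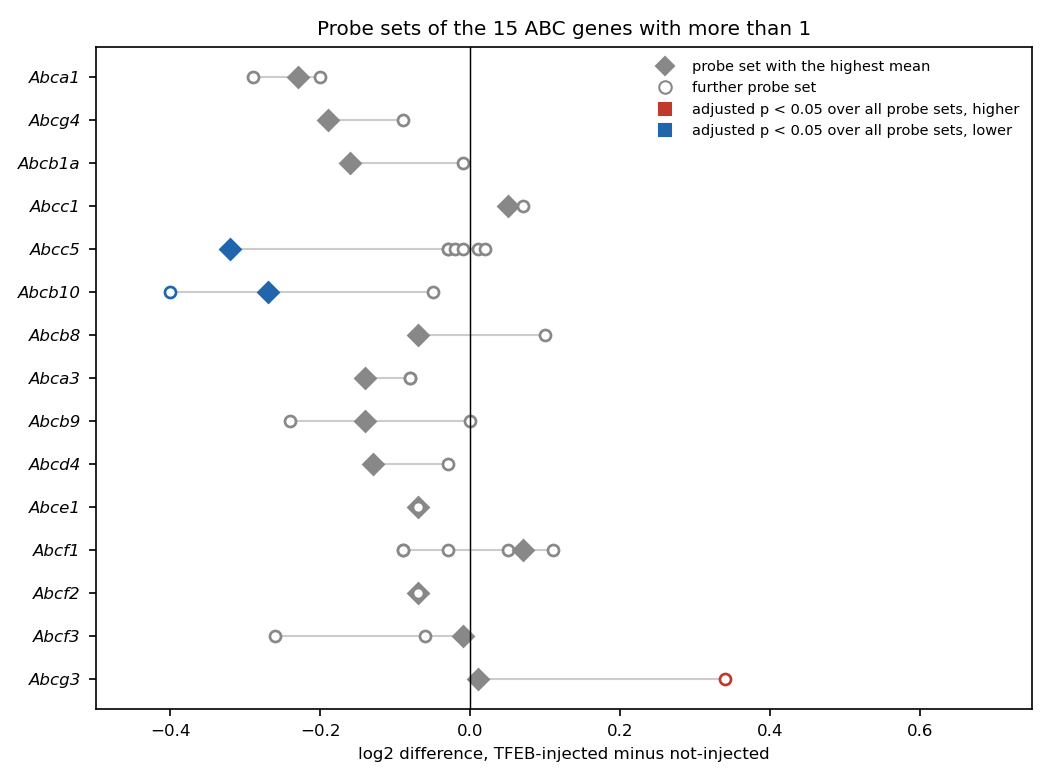
Difference of each probe set (TFEB-injected minus not-injected, log2, horizontal axis) for the 15 members with more than 1; diamonds are the probe sets used and circles the further ones, coloured where the adjusted p over all probe sets is under 0.05. The Abcc5 diamond at -0.32 stands apart from its 6 circles near 0; Abcg4, called with 1 probe set per gene, has an adjusted p of 0.0515 here and is grey.

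Genes that control or serve the transporters were examined by class. Beside the counts that follow, 17.9% of all genes tested passed, 9.99% higher and 7.92% lower. At or above the median level 27.6% of genes passed. Whether any list differs from these shares was not tested. Of 18 regulators 2 rose and 2 fell. Ppargc1a, for a coactivator, rose by 2.25 ± 0.32 (SE; limma adjusted p = 0.00330), with 8.93, 9.73 and 10.42 in TFEB-injected livers and 7.43, 7.44 and 7.46 in not-injected livers. Srebf1, for the lipogenic factor SREBP-1, fell by 0.79 ± 0.11 on the log2 scale (SE; limma adjusted p = 0.00335). Nr1i3, for the xenobiotic receptor CAR, fell by 0.27 ± 0.06 and Pparg rose by 0.86 ± 0.21, but removing any not-injected mouse or TFEB-injected mouse 2 ended both calls (adjusted p up to 0.0699 and 0.106). An intensity trend and robust prior also ended the Pparg call (0.0613). The bile acid receptor gene Nr1h4, the sterol receptor gene Nr1h3 and the xenobiotic receptor gene Nr1i2, named after their values were seen, gave -0.04, -0.17 and -0.25 and did not pass (limma adjusted p = 0.660, 0.135 and 0.0646).

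Of 13 partners of the bile canaliculus 0 rose and 3 fell. Slc9a3r1, for a scaffold that anchors membrane proteins, fell by 0.30 ± 0.05 on the log2 scale (SE; limma adjusted p = 0.00503). Stard10, for a phospholipid transfer protein, fell by 0.28 ± 0.04 (limma adjusted p = 0.00486), and Myo5b, for the motor that carries transporters to the canaliculus, completed the count at -0.31 ± 0.07. Radixin, which tethers Abcc2 to the membrane skeleton, had 0.16 ± 0.05 for its gene Rdx (limma adjusted p = 0.0536). Myo5b and Rdx were named after their values were seen.

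Of 10 sterol partners 3 rose and 1 fell. Lpcat3, for an enzyme that puts polyunsaturated chains on phospholipids, rose by 0.80 ± 0.11 (SE; limma adjusted p = 0.00246) and Npc2, which hands cholesterol out of lysosomes, by 0.32 ± 0.06 (0.0146). Removing not-injected mouse 1 or TFEB-injected mouse 2 ended the Npc2 call (adjusted p up to 0.0623). Lcat, for the enzyme that esterifies cholesterol in HDL, fell by 0.22 ± 0.06 (0.0321), a call that ended with any not-injected mouse or TFEB-injected mouse 2 removed (adjusted p up to 0.102) and with the replicate number as a block (0.0804). Apoa1, the acceptor of Abca1's cholesterol, was named after its values were seen. It read 14.66 to 14.68 in TFEB-injected livers and 14.68 to 14.69 in not-injected livers.

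Of 17 peroxisomal partners 3 rose and 5 fell. Acox2, which oxidises the side chain of bile acid intermediates and branched-chain acyl-CoAs, both known substrates of Abcd3, fell by 0.67 ± 0.04 on the log2 scale (SE; limma adjusted p = 1.39e-04), with 10.86 in each TFEB-injected liver and 11.52 to 11.54 in not-injected livers. Slc25a17, for the peroxisomal carrier of coenzyme A and nucleotides, fell by 0.37 ± 0.05 (limma adjusted p = 0.00206). The thiolase gene Acaa1b rose by 0.50 ± 0.04 (3.74e-04) and Crot, for the carnitine octanoyltransferase that passes shortened chains on, by 0.36 ± 0.05 (0.00236). Of 3 genes for the insertion of peroxisomal membrane proteins, named after their values were seen, Pex16 fell by 0.35 ± 0.07 (0.00981), while Pex19 (0.01) and Pex3 (-0.02) did not pass.

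On the blood side of the hepatocyte, 1 of 6 sinusoidal transporters rose and 2 fell. Slco1a4, for an organic anion transporter, rose by 1.33 ± 0.22 (SE; limma adjusted p = 0.00683). Slc22a7, for an organic anion transporter of another family, fell by 2.01 ± 0.25 on the log2 scale (0.00187) and Slco1a1 by 0.54 ± 0.07 (0.00219). The main bile salt uptake gene Slc10a1, named after its values were seen, did not pass (-0.03, limma adjusted p = 0.75). It gave 13.52 to 13.60 in TFEB-injected livers and 13.57 to 13.60 in not-injected livers. Among 9 heme and iron-sulfur partners 1 rose and 2 fell: the mitochondrial iron importer gene Slc25a37 rose by 0.33 ± 0.05 (0.00631), while Alas2 fell, as did Cpox, for a heme synthesis enzyme, by 0.46 ± 0.08 (0.00722). ABC proteins with other symbols, the peptide transporter genes Tap1 (0.05) and Tap2 (0.04) and the chloride channel gene Cftr (-0.09), did not pass, and of the 7 genes of that list Psmb9 was the 1 that did (0.26 ± 0.07; limma adjusted p = 0.0346), a call that ended when any mouse but TFEB-injected mouse 1 was removed (adjusted p up to 0.122), under cyclic loess (0.0550) and with the replicate number as a block (0.0591). Of 6 partners in ribosome recycling and translation control 0 passed in limma, and Eif2s3x had the smallest p (-0.15 ± 0.05; adjusted p = 0.0940).

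**Figure D4:**
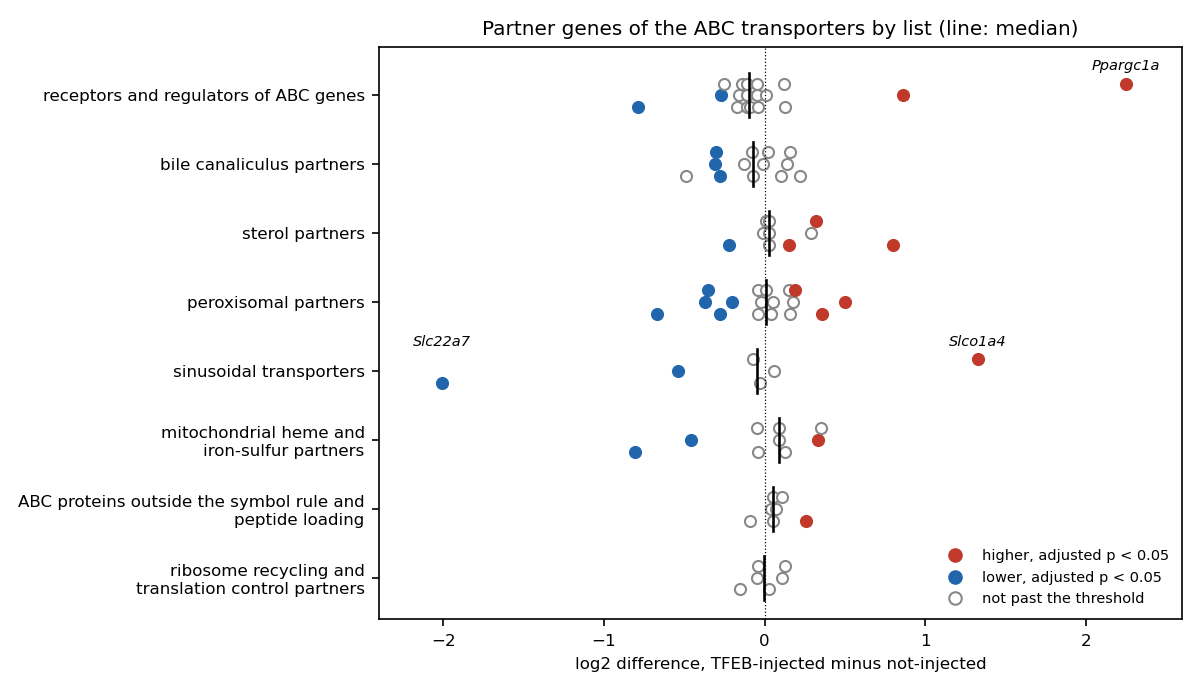
Difference of each measured partner gene (TFEB-injected minus not-injected, log2, horizontal axis) by list down the page; filled red and blue points passed the test, open points did not, and the vertical line in each list is its median. List medians lie between -0.10 and 0.09, while single genes reach from -2.01 (Slc22a7) to 2.25 (Ppargc1a).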

How the data were processed

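Liver RNA of 6 mice was measured on 1 array each. The deposited values are log2 levels that the authors made with RMA in the affy package, per the submitters' processing notes, which list no versions. RMA gives all arrays the same distribution, so overall shifts are invisible, and it can understate differences of dim genes. The labels give the groups. Of 22690 probe sets, 20393 have 1 gene symbol, 691 several and 1606 none; 20380 that are no controls were used, 1 per gene, for 12393 genes. All 36 members matched a RefSeq gene ID.

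Differences were fitted with limma 3.58.1 in R 4.3.3 (lmFit, eBayes), with p-values adjusted by Benjamini-Hochberg across the 12393 genes; "rose" and "fell" mean an adjusted p under 0.05. The procedure was tested on simulated data drawn with the same spread in both groups. Measured spreads can differ, as for Abcg5 (SD 0.30 in TFEB-injected and 0.08 in not-injected livers). The simulation therefore cannot show how the test behaves with unequal spreads. Errors are SE of differences and SD of levels. Named genes are Tfeb, Ppara, the canalicular, sterol and peroxisomal members, other members that passed, and of each class or list without a call the gene with the smallest p; of other partner lists the 2 called genes with the smallest p per direction. Further names were added after their values were seen. Members, classes and lists were chosen with earlier results of these data known. The closing section gives the alternatives. Promoters are from RefSeq (GRCm38.p6). Plots were made with matplotlib 3.10.9 (Python 3.11.15).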

Additional observations from a re-analysis of the deposited data

How the results depend on the processing

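The counts of 4 members higher and 8 lower were recomputed in 14 alternative settings: each mouse removed in turn, probe sets of a gene averaged, _s_at and _x_at probe sets dropped, arrays centred on the median or scaled by cyclic loess, dim genes dropped, a robust prior with a trend, the replicate number as a block, and every probe set tested. The count of higher members was 4 in all 8 settings that keep every array and 3 to 4 with an array left out; that of lower members was 6 to 11 and, with an array left out, 4 to 9. Abca8a, Abca8b, Abcg2, Abcg8, Abcb11, Abcd3 and Abcb1b kept their calls in every setting that includes them, while Abcg1, Abcg4, Abcg5, Abcc5 and Abcb10 lost theirs in some. Over 490 values of members, 22 lost a call, 11 gained one and 0 called values changed sign. Median centring, which moved the median of all genes from -0.014 to -0.045, gave 11 lower members, adding Abcc2, Abca3 and Abca4. With the replicate number as a block, 4 members were higher and 6 lower, the calls of Abcg4 and Abcb10 being lost. The deviations of same-numbered arrays correlated at 0.011, -0.134 and -0.108, and no array correlated best with its own number. The values thus show no pairing by number, but 3 arrays a group cannot settle whether the mice were paired. Of the 12 members below the median level 1 passed, against 8.23% of all genes at such levels; signal over background was not assessed.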
